A study of Mus musculus with 36 samples.

Results

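The collagen genes of mouse skin were followed through wound healing. They were taken as every gene whose whole symbol reads Col, a number, the letter a and a number, which selected 44 of the 55414 genes counted in each library. All 44 passed the filter on low counts and were among the 20657 genes tested. RNA was measured in 36 skin libraries, 33 of them from wounds, in 2 arms that the labels call PD and P. The groups were 3 samples of unwounded skin, labelled day 0, then 5 PD and 5 P wounds at day 2 after injury, 6 PD and 5 P wounds at day 4, and 6 PD and 6 P wounds at day 12. The labels spell out neither code and name no strain, allele, agent, sex or age, so the arms are called here by their letters, and neither arm is stated for the unwounded samples. The title of the study concerns the removal of senescent cells that express p21 strongly and the speed of skin wound healing. No label says which samples came from the same animal, so p-values measure only the spread between these samples, which may be technical in part. Libraries held 11807291 to 58375510 counts. Levels are given as CPM, a count expressed relative to the effective library size, which allows for both depth and composition.

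Collagens are proteins of the extracellular matrix in which 3 chains wind into a triple helix. Fibrillar collagens I, III and V form the fibrils that give the dermis its strength, and collagen III is known as an early component of wound matrix, with collagen I prevailing in mature skin. FACIT collagens (fibril-associated collagens with interrupted triple helices) lie on fibril surfaces, and collagen VI forms beaded filaments. Collagen IV builds the sheet of the basement membrane. Collagen VII forms the anchoring fibrils below the epidermis, and collagen XVII spans the membrane of basal keratinocytes in hemidesmosomes. Dermal fibroblasts make most of the fibrillar collagen of skin.

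Some libraries stood apart within their groups. At day 12 the summed level of the 11 fibrillar collagen genes was 48200 and 43770 CPM in PD replicates 1 and 2, against 12690 to 26220 CPM in the other 4 PD wounds, and 90980 and 61180 CPM in P replicates 1 and 2, against 11130 to 22310 CPM in the other 4 P wounds. At day 2 it was 5696 to 9454 CPM in PD replicates 1 to 3 and 1123 and 1503 CPM in PD replicates 4 and 5, and 8903 and 13850 CPM in P replicates 1 and 2 and 3064 to 3435 CPM in the other 3 P wounds. The summed level of 12 fibroblast marker genes was high in the same libraries, at 3800 and 3487 CPM in PD replicates 1 and 2 of day 12 and 1315 to 1851 CPM in the rest of that group, and at 6154 and 4838 CPM in P replicates 1 and 2 and 1270 to 1705 CPM in the rest. Unwounded skin ranged from 623.8 to 1167 CPM for the same 12 genes, and 7 of the 12 were called higher at day 12 in each arm. The 6 myofibroblast and smooth muscle markers did not follow the fibroblast markers. At day 12 they summed to 863.6 to 4032 CPM in PD and 917 to 2566 CPM in P wounds, against 2368 to 3298 CPM in unwounded skin. In replicates 1 and 2 of day 12 their sum was 2282 and 863.6 CPM in PD and 917 and 1622 CPM in P wounds. Other markers also moved with the comparison at day 12. All 11 hair matrix and inner root sheath markers were called higher in both arms (summed level 823.8 to 13150 CPM in PD and 685.3 to 13470 CPM in P wounds, against 24.99 to 39.26 CPM in unwounded skin). All 8 adipocyte markers were called lower in both arms, as were 7 of 8 basal keratinocyte markers in PD and 6 of 8 in P wounds. Skeletal muscle markers summed to 5107 to 74670 CPM in PD and 2625 to 34720 CPM in P wounds at day 12, against 61320 to 100200 CPM in unwounded skin, with 3 of 11 called lower in PD and 9 of 11 in P. Hair matrix markers were also high in P day 4 replicate 3 (9499 CPM, against 14.49 to 26.99 CPM in the other 4 P wounds of that day). The part of these cell types in the collagen differences was not tested, and in bulk tissue a change in the number of cells of a type and a change in RNA per cell cannot be told apart. Results are given below for all libraries and, where a call against unwounded skin is lost, gained or turned or its fold moves by over 1.5 times, for a fit that keeps only wound libraries numbered 3 and up, a setting chosen after the spread within the wound groups was seen.

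By edgeR with group means only, the share of the 44 collagen genes called against unwounded skin lay below that of all genes at day 2. It lay near that of all genes at day 4 and above it at day 12. The day 2 shortfall depended on the method: limma-voom with sample weights and 2 surrogate variables put the day 2 share near that of all genes. Against unwounded skin at day 2, 2 members were called higher and 6 lower in PD wounds (39.4% of all tested genes were called, 21% higher and 18.4% lower), and 6 were called higher and 8 lower in P wounds, or 9 and 8 with no composition factor (41.3%, 22.3% higher and 19% lower). At day 4 the counts were 10 higher and 9 lower in PD wounds (47.1%, 25.4% higher and 21.8% lower) and 13 higher and 7 lower in P wounds (43.3%, 23.6% higher and 19.7% lower). At day 12 they were 22 higher and 6 lower in PD wounds (44.9%, 24.2% higher and 20.7% lower) and 23 higher and 6 lower in P wounds (43.7%, 23.7% higher and 20% lower). The median member changed by -0.02, 0.68 and 1.35 on the log2 scale at days 2, 4 and 12 in PD wounds and by 0.13, 0.78 and 1.56 in P wounds, where the median over all genes stayed between 0.02 and 0.10. The groups did not overlap with unwounded skin for 13, 12 and 27 members in PD wounds at days 2, 4 and 12 (44.7%, 40.9% and 38.4% of all genes) and for 20, 20 and 26 members in P wounds (46.2%, 42.7% and 40%). The 6 comparisons share the same 3 unwounded samples, and without unwounded replicate 2 the 14 calls in P wounds at day 2 came to 8. With wound libraries numbered 3 and up, where 43 members passed the filter, the calls were 1 higher and 9 lower, 11 and 11, and 21 and 8 in PD wounds and 1 and 11, 14 and 8, and 19 and 7 in P wounds at days 2, 4 and 12. That fit called 37.9%, 51.4% and 48.2% of all genes in PD wounds (22.1%, 28% and 26.5% higher). In P wounds it called 40.8%, 41.1% and 46.9% of all genes (22.9%, 25.2% and 25% higher).

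**Figure D1:**
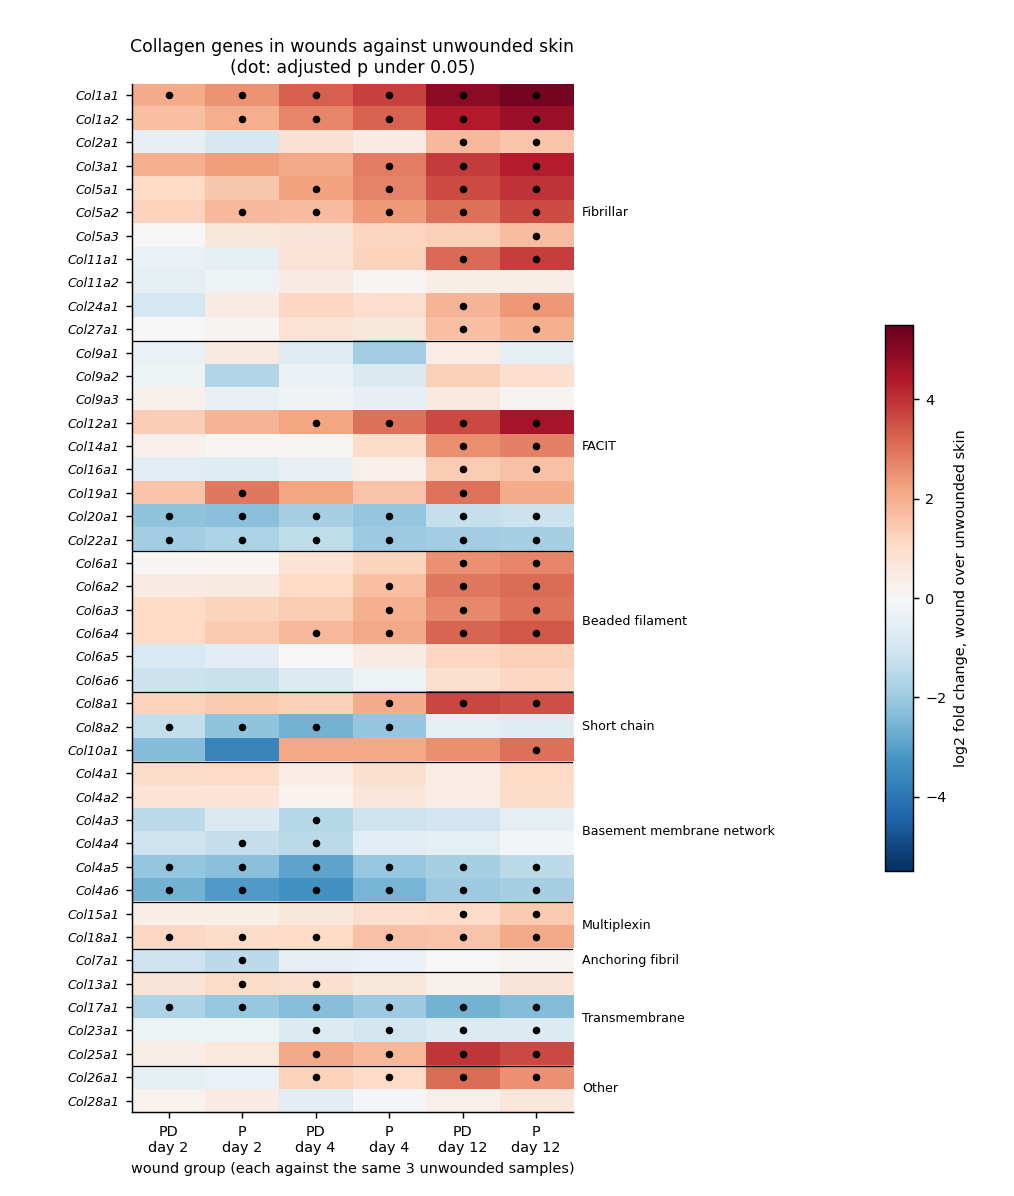
Fitted log2 fold change of each of the 44 collagen genes (rows, ordered by class) in the 6 wound groups (columns) over unwounded skin, with a dot where the adjusted p was under 0.05. Fibrillar genes turn red towards day 12, with 9 of 11 called higher in PD and 10 of 11 in P wounds, while Col17a1, Col4a5, Col4a6 and Col20a1 are blue in all 6 columns. The blue of Col10a1 at day 2 in P wounds rests on 0 counts in all 5 libraries.

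Fibrillar collagens made up most of the increase. Of the 11 fibrillar genes, 1, 4 and 9 were called higher in PD wounds at days 2, 4 and 12 and 3, 5 and 10 in P wounds, and none was called lower. In the same comparisons 21% to 25.4% of all genes were called higher. In wound libraries numbered 3 and up, Col24a1 was called lower in PD wounds at day 2 (-1.29, adjusted p = 0.0308). Col1a1 (ENSMUSG00000001506, chromosome 11, 94827050 to 94843868 on GRCm39) encodes the alpha 1 chain of collagen I. Its levels in unwounded skin were 333, 470.5 and 231 CPM. At day 2 Col1a1 stood at 1531, 2605, 2092, 366 and 499 CPM in PD wounds and at 2336, 3965, 1146, 1116 and 1086 CPM in P wounds. At day 4 it ranged from 1054 to 5601 CPM in PD wounds (median 3043) and was 5305, 2613, 2657, 3853 and 8962 CPM in P wounds, and at day 12 it ranged from 4934 to 17770 CPM in PD wounds (median 9541) and from 4572 to 32070 CPM in P wounds (median 7532). All wounds lay above the highest unwounded sample except PD day 2 replicate 4. The log2 change of Col1a1 was 2.04 ± 0.72, 3.27 ± 0.76 and 4.97 ± 0.84 (SE) at days 2, 4 and 12 in PD wounds, a 4.11-, 9.63- and 31.3-fold rise (adjusted p = 0.0242, 0.000791 and 2.35e-05). In P wounds it was 2.48 ± 0.74, 3.76 ± 0.79 and 5.26 ± 0.85 (adjusted p = 0.00741, 0.000333 and 1.3e-05). In wound libraries numbered 3 and up, Col1a1 changed by 1.57, 3.07 and 4.49 in PD wounds and by 1.73, 3.96 and 4.21 in P wounds, and the PD value at day 2 missed the threshold (adjusted p = 0.0508).

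The partner chain Col1a2 and the collagen III gene Col3a1 also rose by day 12, with larger standard errors than Col1a1. The course of Col3a1 differed in PD wounds. Its mean there went from 366.0 to 403.8 CPM per kilobase of transcript between days 2 and 4, and that of Col1a1 from 239.2 to 560.5. Col3a1 (chromosome 1, 45350698 to 45395840) had 489.6, 768 and 335 CPM in unwounded skin. At day 2 it had 2464, 4157, 2751, 327 and 483 CPM in PD wounds and 4063, 6005, 841, 1094 and 963 CPM in P wounds, so PD replicates 4 and 5 lay within or below the unwounded range. At day 12 Col3a1 ranged from 3441 to 15670 CPM in PD wounds (median 5105) and from 2725 to 29240 CPM in P wounds (median 4489), all above unwounded skin. The increase passed the test at day 12 in both arms (log2 change 3.85 ± 1.02, 14.4-fold, adjusted p = 0.00305 in PD; 4.33 ± 1.05, 20.2-fold, adjusted p = 0.00136 in P) and at day 4 in P wounds (2.80 ± 0.97, adjusted p = 0.0202), with 2.08 ± 0.92 in PD wounds (adjusted p = 0.0613). The day 12 change of Col3a1 in wound libraries numbered 3 and up was 3.06 in PD and 2.82 in P wounds. Col1a2 (chromosome 6, 4504814 to 4541555) ranged at day 12 from 3186 to 11610 CPM in PD wounds (median 5126) and from 2933 to 22050 CPM in P wounds (median 4528), against 297, 464 and 200.1 CPM in unwounded skin. No wound of day 12 overlapped unwounded skin. Col1a2 rose by 4.37 ± 0.88 in PD wounds (20.7-fold, adjusted p = 0.000195) and by 4.75 ± 0.89 in P wounds (27-fold, adjusted p = 8.87e-05), with 3.79 in PD and 3.59 in P wounds numbered 3 and up.

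The promoters of these genes differ in composition. They are shown because Col1a2 and Col3a1 rose together; the window runs from 250 bases before to 50 after the RefSeq start on GRCm38.p6, and capitals mark the box CCAAT, the box TATAAA and the box GGGCGG, which do not overlap one another here. Each was searched on both strands, and on the opposite strand they read as ATTGG for the first, as TTTATA for the next and as CCGCCC for the last. Col1a2 lies at chr6:4505368-4505667 and Col3a1 at chr1:45311288-45311587, both on the plus strand.
Col1a2: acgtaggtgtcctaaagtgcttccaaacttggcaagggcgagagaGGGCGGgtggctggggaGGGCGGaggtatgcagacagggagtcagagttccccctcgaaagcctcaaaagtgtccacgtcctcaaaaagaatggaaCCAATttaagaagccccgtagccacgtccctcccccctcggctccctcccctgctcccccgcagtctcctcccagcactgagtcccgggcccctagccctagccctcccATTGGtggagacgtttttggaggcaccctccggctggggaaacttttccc
Col3a1: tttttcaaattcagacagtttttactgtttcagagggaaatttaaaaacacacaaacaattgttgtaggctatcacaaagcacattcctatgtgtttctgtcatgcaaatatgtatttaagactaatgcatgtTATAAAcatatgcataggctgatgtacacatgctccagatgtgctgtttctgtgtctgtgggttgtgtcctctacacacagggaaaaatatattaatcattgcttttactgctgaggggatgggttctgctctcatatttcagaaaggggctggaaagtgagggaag
The Col1a2 window holds 61.0% G and C, a CCAAT at -109, another on the opposite strand at 1, and GGGCGG at -205 and -188, counted from the start site. The Col3a1 window holds 37.7% G and C and a TATAAA at -117. Windows were found for 35 of the 44 members. CCAAT occurred in 13 of these, TATAAA occurred in 5 and GGGCGG occurred in 22, against 37.4%, 13.6% and 35.7% of 32851 mouse windows. Among fibrillar members with a window they occurred in 3, 2 and 6 of 8. Members were counted once if any of their windows held the box, while the mouse percentages count each window. Col6a2, Col9a1 and Col18a1 had more than 1 window.

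Both main chains of collagen V, which sets fibril diameter, also rose. At day 12 Col5a1 ranged from 567 to 1673 CPM in PD wounds (median 729) and from 391 to 3671 CPM in P wounds (median 617), against 74.7, 121 and 48.1 CPM in unwounded skin. The groups did not overlap, and Col5a1 rose 12.0-fold in PD wounds (log2 change 3.59 ± 0.80, adjusted p = 0.000601) and 15.9-fold in P wounds (3.99 ± 0.81, adjusted p = 0.000237). Col5a2 rose 8.13-fold in PD (adjusted p = 0.00199) and 12.1-fold in P wounds (adjusted p = 0.000496) at day 12. In wounds numbered 3 and up the log2 changes at day 12 were 3.08 in PD and 2.71 in P for Col5a1 and 2.42 in PD and 2.24 in P for Col5a2. Col5a3 was called in P wounds at day 12 only (log2 change 1.70 ± 0.60, adjusted p = 0.0233), against 0.41 (adjusted p = 0.42) with wound libraries numbered 3 and up, a fit that called Col5a3 higher in P wounds at day 4 (1.46, adjusted p = 0.0115). Col11a1, the alpha 1 chain of the minor fibril collagen XI, ranged at day 12 from 8.67 to 19.4 CPM in PD wounds (median 12.3) and from 11.2 to 34.02 CPM in P wounds (median 16.3), against 1.79, 1.48 and 1.05 CPM in unwounded skin. It rose 8.77-fold in PD (adjusted p = 0.000467) and 13.8-fold in P wounds (adjusted p = 7.41e-05), with no overlap. Col27a1, a fibrillar collagen best known from cartilage, rose 3.19-fold in PD (adjusted p = 0.000775) and 3.83-fold in P wounds (adjusted p = 0.000178). Col24a1 rose 3.62-fold in PD wounds (adjusted p = 0.0362) and 5.18-fold in P wounds (adjusted p = 0.0103), while both groups overlapped unwounded skin, and in P wounds numbered 3 and up its log2 change was 0.65 (adjusted p = 0.207), while in PD wounds numbered 3 and up it was also called higher at day 4 (1.18, adjusted p = 0.0244), as was Col27a1 (0.95, adjusted p = 0.0386). Col2a1, the main collagen of cartilage, was called higher at day 12 in both arms but stayed at 0.53 to 1.79 CPM in PD and 0.343 to 1.10 CPM in P wounds, against 0.449, 0.14 and 0.157 CPM in unwounded skin. In P wounds numbered 3 and up the Col2a1 value missed the threshold (adjusted p = 0.054). Col11a2 did not pass the test against unwounded skin on any day, and was called higher in PD wounds at day 4 in wound libraries numbered 3 and up (0.72, adjusted p = 0.0363).

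Single libraries decided several fibrillar calls. The PD call of Col1a1 at day 2 was lost without PD replicate 2 or unwounded replicate 1 or 3 (adjusted p = 0.0627, 0.0695 and 0.0933). At day 2 in P wounds, Col1a2 and Col5a2 were lost without P replicate 1 or 2 or any 1 unwounded sample (adjusted p = 0.0554 to 0.14 for Col1a2 and 0.0745 to 0.143 for Col5a2), and both with wounds numbered 3 and up (0.2 and 0.114). At day 4, Col3a1 in P wounds was lost without unwounded replicate 1 or 3 (0.0665 and 0.0796), Col5a1 in PD wounds without unwounded replicate 1 or 3 (0.0529 and 0.0715), and Col5a2 in PD wounds without PD replicate 1, 2 or 5 or any 1 unwounded sample (0.0528 to 0.13). At day 12, Col5a3 in P wounds was lost without P replicate 1 (0.118) or unwounded replicate 1 or 3 (0.0584 and 0.0856). Col24a1 was lost in PD wounds without PD replicate 2 or unwounded replicate 1 or 3 (0.093 to 0.132) and in P wounds without unwounded replicate 3 (0.0553). Col2a1 was lost in PD wounds without unwounded replicate 2 or 3 (0.0883 and 0.0584) and in P wounds without P replicate 2, 3 or 6 or unwounded replicate 2 or 3 (0.0509 to 0.156).

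**Figure D2:**
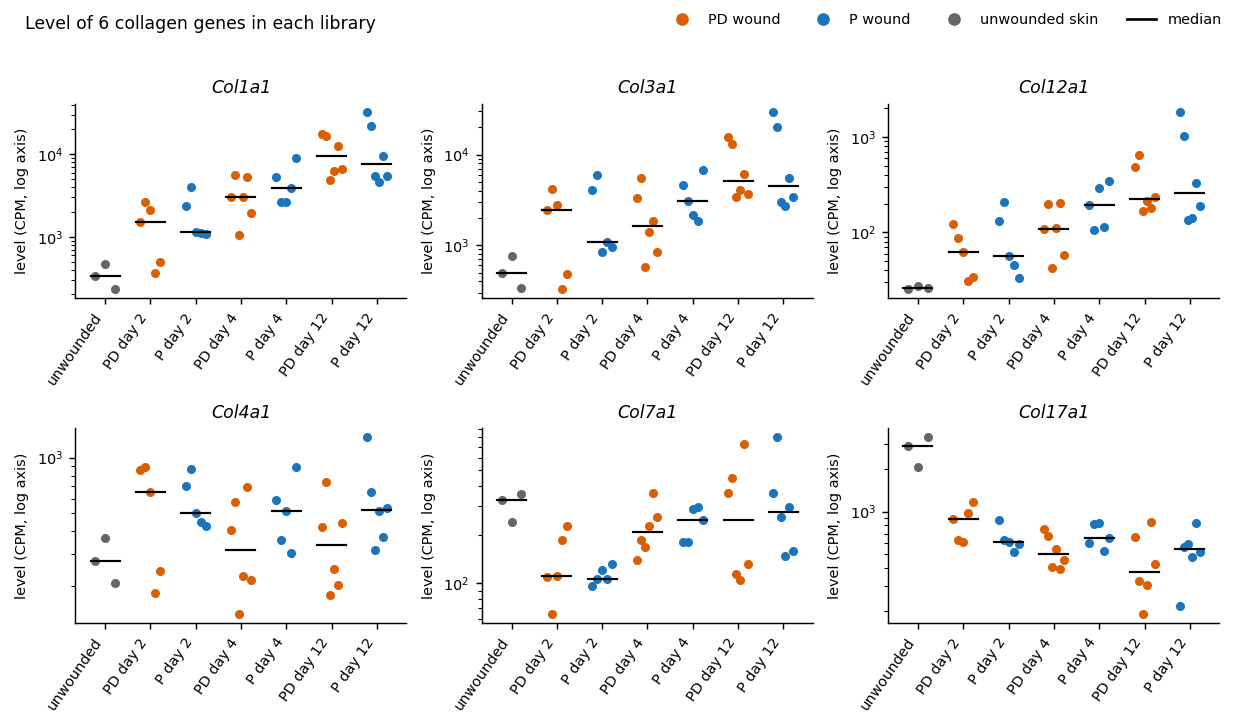
Level of Col1a1, Col3a1, Col12a1, Col4a1, Col7a1 and Col17a1 in each library (points, CPM on a log axis) by group, with the group median as a bar. Col1a1 medians climb to 9541 CPM in PD and 7532 CPM in P wounds at day 12, against 333 CPM in unwounded skin, while every wound lies below unwounded skin for Col17a1.

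The make-up of the collagen counts turned from transmembrane to fibrillar. Summed over the 44 genes, collagens took 6031 to 6211 CPM in unwounded skin, 3268 to 13450 CPM in PD and 5479 to 17980 CPM in P wounds at day 2, 4103 to 20510 CPM in PD and 11530 to 29760 CPM in P wounds at day 4, and 15890 to 56330 CPM in PD and 15290 to 105400 CPM in P wounds at day 12. Fibrillar genes held 24.4% of the collagen counts in unwounded skin, 53.5% in PD and 63.6% in P wounds at day 2, 71.6% and 73.7% at day 4, and 81.1% and 79.0% at day 12. Transmembrane genes, nearly all of them Col17a1, held 46.2% in unwounded skin, 16.7% in PD and 8.94% in P wounds at day 2, 6.18% and 5.06% at day 4, and 1.70% and 2.43% at day 12. The lowest fibrillar share of a wound was 34.35% (PD day 2), just above the highest unwounded share of 34.03%. Beaded filament genes stayed between 6.999% and 8.97% in the group means, so their sum grew about as fast as that of all collagens. Per kilobase of transcript, Col17a1 had the highest mean level in unwounded skin, at 494.4 CPM per kb, followed by Col3a1 at 95.5, Col1a2 at 59.8 and Col1a1 at 58.2 CPM per kb. By group mean Col3a1 led at day 2 (366.0 CPM per kb in PD and 466.1 in P wounds), and Col1a1 led at day 4 (560.5 in PD and 788.9 in P) and at day 12 (1819 in PD and 2225 in P). Not every day 2 library had this order. In PD replicates 4 and 5 Col17a1 stood higher, at 982 and 1168 CPM against 327 and 483 CPM for Col3a1. In P replicates 3 and 5 Col1a1 stood higher per kilobase, at 1146 and 1086 CPM against 841 and 963 CPM for Col3a1. Nor did every day 4 library follow its group mean, as Col3a1 stood above Col1a1 per kilobase in PD replicates 1 and 2 and P replicate 2. The ratio of Col1a1 to Col3a1 per kilobase averaged 0.62 ± 0.04 in unwounded skin (SD, n = 3) and 0.781 ± 0.218 in PD and 0.891 ± 0.308 in P wounds at day 2. It averaged 1.729 ± 0.707 in PD (range 0.865 to 2.68) and 1.245 ± 0.434 in P wounds (range 0.791 to 1.958) at day 4. At day 12 it averaged 1.45 ± 0.31 in PD, below the PD mean of day 4, and 1.41 ± 0.30 in P wounds. At day 12 its lowest value was 1.06 in PD and 1.02 in P wounds, above the highest unwounded value of 0.647.

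**Figure D3:**
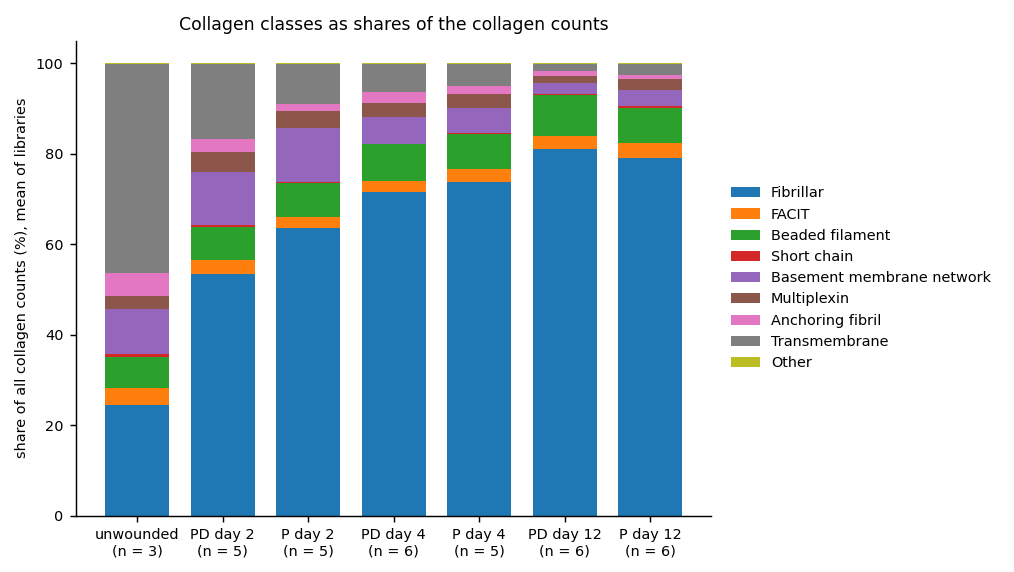
Mean share of all collagen counts (percent) held by each of the 9 collagen classes in unwounded skin and in PD and P wounds at days 2, 4 and 12, as stacked bars. The fibrillar share grows to 81.1% in PD and 79.0% in P wounds at day 12, against 24.4% in unwounded skin, and the transmembrane share shrinks to 1.70% and 2.43%, against 46.2%.

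FACIT collagens split into genes that rose and genes that fell. Of 9 members, 0, 1 and 4 were called higher and 2, 2 and 2 lower in PD wounds at days 2, 4 and 12, and 1, 1 and 3 higher and 2, 2 and 2 lower in P wounds. In the same comparisons 21% to 25.4% of all genes were called higher and 18.4% to 21.8% lower. Col12a1 (ENSMUSG00000032332, chromosome 9, 79506268 to 79626135), a stretch-responsive fibril cross-bridge, had 25.3, 27.2 and 26.1 CPM in unwounded skin. At day 4 it ranged from 42.2 to 202 CPM in PD wounds (median 109.6) and was 196, 106, 294, 115 and 345 CPM in P wounds. At day 12 it ranged from 169 to 650.2 CPM in PD wounds (median 224) and from 136 to 1814 CPM in P wounds (median 259). All wounds of every day lay above all unwounded samples. Col12a1 rose 4.57-fold at day 4 and 12.3-fold at day 12 in PD wounds (log2 change 2.19 ± 0.78 and 3.62 ± 0.85, adjusted p = 0.0215 and 0.00106), and 8.06- and 23.1-fold in P wounds (3.01 ± 0.83 and 4.53 ± 0.90, adjusted p = 0.00426 and 0.000167). At day 2 its log2 change was 1.36 in PD (adjusted p = 0.158) and 1.86 in P wounds (adjusted p = 0.0554). The day 12 change in wound libraries numbered 3 and up was 2.95 in both arms. The PD call at day 4 was lost without any 1 unwounded sample (adjusted p = 0.0669, 0.065 and 0.0639).

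Col16a1 and Col14a1 were called higher at day 12 and on no earlier day in the fit of all libraries. In wounds numbered 3 and up both were called lower on an earlier day, Col16a1 in P wounds at day 2 (-1.08, adjusted p = 0.0119) and Col14a1 in PD wounds at day 4 (-1.52, adjusted p = 0.0416). Col16a1, which joins fibrils and fibrillin microfibrils, ranged at day 12 from 204 to 477 CPM in PD wounds (median 424) and from 314 to 608 CPM in P wounds (median 399.6), against 152, 111 and 171 CPM in unwounded skin. It rose 2.61-fold in PD (log2 change 1.38 ± 0.33, adjusted p = 0.00135) and 3.03-fold in P wounds (1.60 ± 0.34, adjusted p = 0.000338), without overlap. Col14a1, the undulin gene, rose 5.90-fold in PD (adjusted p = 0.0334) and 6.94-fold in P wounds (adjusted p = 0.0229), where the log2 change was 2.79, against 1.72 in P wounds numbered 3 and up. Its call was lost without any 1 unwounded sample in either arm, and in PD also without PD replicate 1 (adjusted p = 0.0611 to 0.108 in PD and 0.0524 to 0.0844 in P). Col20a1 fell on every day. It had 16.7, 13.9 and 20.3 CPM in unwounded skin, 3.04, 3.45, 3.15, 5.22 and 3.31 CPM in PD and 3.35, 3.66, 3.83, 3.21 and 3.10 CPM in P wounds at day 2, and 4.51 to 9.36 CPM in PD and 3.27 to 11.3 CPM in P wounds at day 12. No wound reached the unwounded range. The fall was 4.66-, 3.54- and 2.39-fold at days 2, 4 and 12 in PD wounds (adjusted p = 7.46e-07, 4.07e-06 and 0.000608) and 4.94-, 4.39- and 2.30-fold in P wounds (adjusted p = 3.37e-07, 1.23e-06 and 0.000939). Col22a1, known from the muscle-tendon junction, fell on every day in both arms, by 3.77-fold in PD and 3.57-fold in P wounds at day 12 (adjusted p = 0.0017 and 0.00242). At day 2, 1 of 11 skeletal muscle markers was called lower in each arm, and at day 4, 1 in PD and 9 in P wounds. Their summed level was 15070 to 49430 CPM in PD and 14700 to 41290 CPM in P wounds at day 2 and 13410 to 73160 CPM in PD and 5249 to 49430 CPM in P wounds at day 4, so that 1 PD wound of day 4 and 1 of day 12 lay within the unwounded range given above. Their part in the Col22a1 values was not tested. Without unwounded replicate 1, the fall of Col22a1 missed the threshold at day 2 in P (adjusted p = 0.0536) and at day 4 in PD wounds (0.126, and 0.0652 with wounds numbered 3 and up), and 2 surrogate variables ended its day 12 calls in both arms (0.0548 in PD and 0.239 in P). Col19a1 was called higher in PD wounds at day 12 and in P wounds at day 2, but unwounded skin held 3 counts of it in all. Those calls were lost without unwounded replicate 2 or 3 in either arm (adjusted p = 0.124 and 0.0898 in PD, 0.15 and 0.117 in P) and in P also without P replicate 2 or 5 (0.102 and 0.0594) and with wounds numbered 3 and up (0.0743). The 3 collagen IX genes did not pass the test against unwounded skin.

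The chains of collagen VI that form its main heterotrimer rose at day 12. Of the 6 beaded filament genes, 0, 1 and 4 were called higher in PD and 0, 3 and 4 in P wounds at days 2, 4 and 12. The share of all genes called higher there was 21% to 25.4%. At day 12 Col6a1 ranged from 564 to 1462 CPM in PD wounds (median 956) and from 449 to 2550 CPM in P wounds (median 676), against 174, 201 and 140.2 CPM in unwounded skin. It rose 5.76-fold in PD (log2 change 2.53 ± 0.59, adjusted p = 0.00103) and 6.49-fold in P wounds (2.70 ± 0.60, adjusted p = 0.000572), with no overlap. Col6a2 and Col6a3 rose 7.44- and 6.25-fold in PD and 8.32- and 7.92-fold in P wounds (adjusted p = 0.000342, 0.00132, 0.0002 and 0.000466). In P wounds numbered 3 and up the log2 changes of Col6a1, Col6a2 and Col6a3 were 1.76, 2.14 and 1.9, against 2.7, 3.06 and 2.99 in all P wounds, and Col6a1 was also called at day 4 (1.36, adjusted p = 0.0274). Col6a1 and Col6a2, which lie 102453 bases apart by their starts on chromosome 10, kept a nearly fixed proportion: their ratio per kilobase spanned 1.505-fold over the 36 libraries, while the genes themselves spanned 35.5- and 36.8-fold. That ratio averaged 1.46 to 1.54 in the wound groups, against 1.95 ± 0.10 in unwounded skin (SD, n = 3). Col6a4 was called higher in both arms at day 12 and day 4, at 0.675 to 1.36 CPM in PD and 0.748 to 1.93 CPM in P wounds at day 12, against 0, 0.0997 and 0.262 CPM in unwounded skin, 10 counts in all. Col6a5 and Col6a6 did not pass the test against unwounded skin in the fit of all libraries. With wounds numbered 3 and up both were called lower in P wounds at day 2 (-2.19 each, adjusted p = 0.00983 and 0.0034) and Col6a6 in PD wounds at day 4 (-1.3, adjusted p = 0.0339). At day 4 in P wounds, Col6a2 was lost without P replicate 5 or unwounded replicate 1 or 3 (adjusted p = 0.0626, 0.0579 and 0.0824) and Col6a3 without unwounded replicate 3 (0.0609). At day 4 Col6a4 was lost without unwounded replicate 1 or 2 in either arm (0.155 and 0.111 in PD, 0.0878 and 0.0695 in P) and in PD without PD replicate 2 or 5 (0.0729 and 0.0607) and with wounds numbered 3 and up (0.141).

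The 2 chains of collagen VIII took different courses against unwounded skin. In the fit of all libraries they were called in opposite directions on the same day only in P wounds at day 4. Col8a1, a chain of the network collagen VIII of vessels and the cornea, ranged at day 12 from 30.7 to 107 CPM in PD wounds (median 53.3) and from 26.8 to 80.3 CPM in P wounds (median 52.0), against 5.01, 5.13 and 3.46 CPM in unwounded skin. It rose 12.9-fold in PD (log2 change 3.69 ± 0.65, adjusted p = 3.79e-05) and 11.5-fold in P wounds (3.53 ± 0.64, adjusted p = 5.91e-05), with no overlap. At day 4 Col8a1 was called in P wounds, at 30.2, 12.0, 13.1, 13.4 and 25.6 CPM and with no overlap (4.15-fold, adjusted p = 0.00675). Its partner chain Col8a2 had 28.3, 21.04 and 33.97 CPM in unwounded skin, and at day 2 it had 10.7, 7.82, 12.4, 10.3 and 13.6 CPM in PD and 6.08, 7.31, 8.64, 3.90 and 3.91 CPM in P wounds. At day 4 it had 2.25 to 6.03 CPM in PD wounds and 6.97, 8.01, 5.35, 2.08 and 9.201 CPM in P wounds. All wounds of days 2 and 4 lay below unwounded skin. Col8a2 fell 2.53- and 6.01-fold at days 2 and 4 in PD wounds (adjusted p = 0.0105 and 4.42e-06) and 4.65- and 4.36-fold in P wounds (adjusted p = 8.01e-05 and 0.000149). Without unwounded replicate 3 the PD value at day 2 missed the threshold (adjusted p = 0.0772), and at day 12 neither arm passed the test. Between days 4 and 12 Col8a1 and Col8a2 were both called higher in both arms. The P call of Col8a1 in that step was lost without P day 4 replicate 2 or 4 (adjusted p = 0.0604 and 0.0564) and with wounds numbered 3 and up. Col10a1, the collagen of hypertrophic cartilage, was near 0 throughout: 4 counts in all in unwounded skin, 1 in PD and 0 in P wounds at day 2, and at most 0.586 CPM in PD and 0.943 CPM in P wounds at day 12. Its call in P wounds at day 12 (adjusted p = 0.0356) was lost without P replicate 2 or 5 or unwounded replicate 1 or 2 (0.0605 to 0.154).

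Among the basement membrane collagens the pair on chromosome X fell. The 6 collagen IV genes lie as 3 head-to-head pairs, Col4a1 and Col4a2 on chromosome 8, Col4a3 and Col4a4 on chromosome 1, and Col4a5 and Col4a6 on chromosome X, with starts 317, 103 and 1282 bases apart on GRCm39. Col4a5 and Col4a6 encode the alpha 5 and alpha 6 chains found with the epidermal basement membrane. Col4a6 had 50.8, 40.9 and 53.5 CPM in unwounded skin, 5.88, 3.03, 6.72, 13.2 and 11.7 CPM in PD and 4.91, 6.20, 5.04, 5.20 and 6.29 CPM in P wounds at day 2, and 8.71 to 19.4 CPM in PD (median 10.6) and 6.82 to 19.1 CPM in P wounds (median 14.2) at day 12. No wound reached the unwounded range. Col4a6 fell 5.98-, 10.2- and 3.97-fold at days 2, 4 and 12 in PD wounds (log2 change -2.58 ± 0.35, -3.34 ± 0.33 and -1.99 ± 0.33, adjusted p = 9.37e-07, 3.86e-09 and 1.51e-05). In P wounds it fell 8.75-, 5.91- and 3.5-fold (-3.13 ± 0.35, -2.56 ± 0.35 and -1.81 ± 0.33, adjusted p = 4.1e-08, 9.21e-07 and 5.23e-05). At day 12 Col4a5 ranged from 5.86 to 11.8 CPM in PD and from 9.202 to 13.9 CPM in P wounds, against 32.4, 24.7 and 37.6 CPM in unwounded skin. It fell 4.41-, 7.56- and 3.56-fold in PD (adjusted p = 2.05e-05, 6.68e-08 and 7.44e-05) and 4.85-, 4.26- and 2.74-fold in P wounds (adjusted p = 7.09e-06, 2.64e-05 and 0.000984) at days 2, 4 and 12. Each of these 12 calls held when any 1 library was left out and with wound libraries numbered 3 and up. Of 8 basal keratinocyte markers, 4 to 7 were called lower in each wound group, and Krt14 was called higher at days 2 and 4 in both arms. Their summed level, to which Krt14 adds, was 10120 to 24050 CPM in PD and 13340 to 24880 CPM in P wounds at day 4 and 3154 to 14350 CPM in PD and 5981 to 11570 CPM in P wounds at day 12, against 11520 to 18690 CPM in unwounded skin. The part of these cells in the fall of Col4a5 and Col4a6 was not tested.

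Col4a1 and Col4a2 encode the chains of the collagen IV found in nearly all basement membranes, those of vessels included. Col4a1 (ENSMUSG00000031502, chromosome 8, 11248423 to 11362826) had 274, 365 and 209.9 CPM in unwounded skin. At day 2 it had 859, 888, 649.9, 184 and 243 CPM in PD and 702, 872, 504, 446 and 428 CPM in P wounds, and at day 12 it ranged from 178 to 740.2 CPM in PD (median 335) and from 316 to 1291 CPM in P wounds (median 522). All P wounds of day 2 lay above unwounded skin, while the other groups overlapped it. Neither gene passed the test on any day; the log2 change of Col4a1 was 0.996 ± 0.55, 0.41 ± 0.52 and 0.39 ± 0.52 at days 2, 4 and 12 in PD wounds (adjusted p = 0.153, 0.545 and 0.556) and 1.06 ± 0.55, 0.90 ± 0.55 and 1.11 ± 0.54 in P wounds (adjusted p = 0.125, 0.184 and 0.0936). At day 4 the levels of Col4a1 were 142 to 689 CPM in PD wounds and 586, 357, 513, 302 and 887 CPM in P wounds. With wound libraries numbered 3 and up, the PD value at day 12 was -0.05. Endothelial markers passed the test in 0 or 1 of 9 genes in each comparison with unwounded skin. Per kilobase, the ratio of Col4a1 to Col4a5 averaged 39.9 to 98.7 in the wound groups, against 9.54 in unwounded skin. The pair itself moved together: the ratio of Col4a1 to Col4a2 per kilobase spanned 1.42-fold over the 36 libraries, while the genes spanned 9.12- and 7.08-fold. The ratio spanned 5.36-fold for Col4a5 over Col4a6 and 8.11-fold for Col4a3 over Col4a4, which are low. The promoter of Col4a1 is shown because its start faces that of Col4a2, 21 bases away in RefSeq (chr8:11312777-11313076, minus strand, marks as above).
Col4a1: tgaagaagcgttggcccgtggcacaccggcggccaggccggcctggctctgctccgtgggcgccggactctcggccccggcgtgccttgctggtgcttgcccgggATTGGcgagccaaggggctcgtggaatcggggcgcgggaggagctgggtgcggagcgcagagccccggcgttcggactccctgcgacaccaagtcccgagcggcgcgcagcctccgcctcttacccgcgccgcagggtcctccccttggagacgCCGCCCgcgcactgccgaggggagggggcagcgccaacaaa
This window, which shares 78 bases with that of Col4a2, holds 74.0% G and C, a CCAAT on the opposite strand at -145 and a GGGCGG on the opposite strand at 10. Of the 5 collagen IV genes with a window, 3 held CCAAT, 0 held TATAAA and 4 held GGGCGG.

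Col4a3 and Col4a4 were low in every group, and their calls depended on the libraries used. With wounds numbered 3 and up, Col4a3 was called lower in all 6 comparisons with unwounded skin (-1.24, -2.62 and -1.8 in PD and -1.44, -1.51 and -1.1 in P wounds at days 2, 4 and 12) and Col4a4 on every day in PD wounds (-1.16, -2.11 and -0.94) and at day 2 in P wounds (-1.85). At day 4 Col4a4 ranged from 0.918 to 3.96 CPM in PD wounds, against 5.79, 5.96 and 5.56 CPM in unwounded skin, a 2.82-fold fall (adjusted p = 0.00814). At day 2 it had 1.77, 4.998, 1.76, 1.40 and 1.58 CPM in P wounds, a 2.50-fold fall (adjusted p = 0.0261) that was lost without any 1 library of the comparison except P replicate 2 (adjusted p = 0.0543 to 0.0805). Col4a3 was called lower in PD wounds at day 4 (2.94-fold, adjusted p = 0.0338), and that call was lost without PD replicate 3, 4, 5 or 6 or any 1 unwounded sample (0.0646 to 0.114). The genes of this pair overlap on opposite strands, as do Col4a1 and Col4a2, and the strand setting of the counting is not given in the sources used here, so reads near the shared starts may be assigned to either gene.

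**Figure D4:**
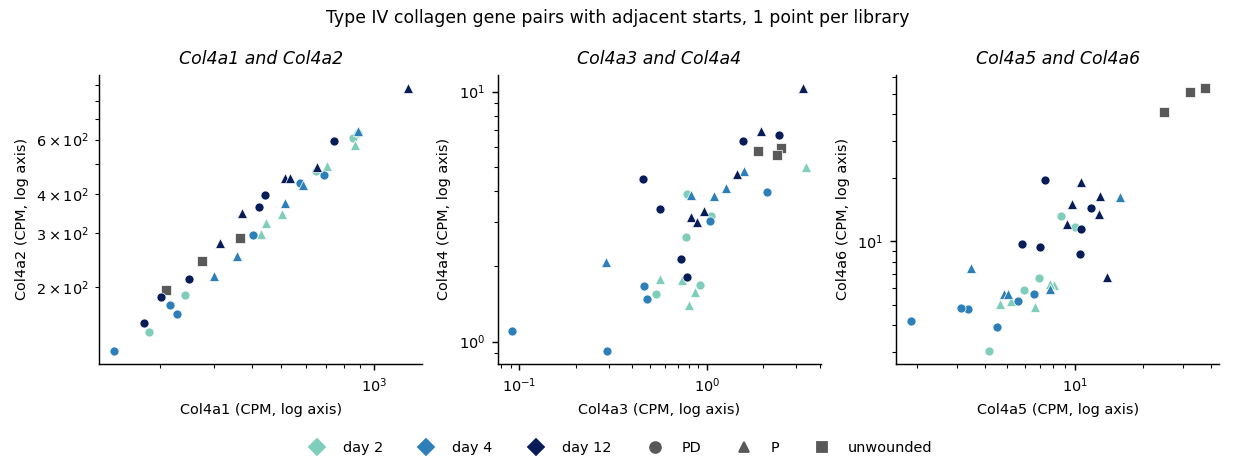
Level of the 2 genes of each head-to-head collagen IV pair in the 36 libraries (CPM, log axes; shape gives the arm, colour the day). Points of Col4a1 and Col4a2 lie on a narrow line with wounds and unwounded skin together, while for Col4a5 and Col4a6 the 3 unwounded samples (24.7 to 37.6 and 40.9 to 53.5 CPM) sit apart at the upper right.

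The anchoring structures below the epidermis differed from each other. Col17a1 (ENSMUSG00000025064, chromosome 19, 47634783 to 47680533) encodes the hemidesmosome collagen of basal keratinocytes. It had 2894, 2059 and 3336 CPM in unwounded skin, 883, 627, 614, 982 and 1168 CPM in PD and 871, 629, 610.5, 522 and 591 CPM in P wounds at day 2. At day 4 it ranged from 391 to 756 CPM in PD wounds (median 499) and was 600.2, 813, 832, 529.7 and 652 CPM in P wounds, and at day 12 it ranged from 189.8 to 844 CPM in PD (median 377) and from 217 to 833 CPM in P wounds (median 540.3). The highest wound of all lay far below the lowest unwounded sample. Col17a1 fell 3.23-, 5.15- and 6.03-fold at days 2, 4 and 12 in PD wounds (log2 change -1.69 ± 0.34, -2.36 ± 0.33 and -2.59 ± 0.33, adjusted p = 0.00024, 8.93e-07 and 3.09e-07) and 4.29-, 4.03- and 5.18-fold in P wounds (-2.1 ± 0.35, -2.01 ± 0.35 and -2.37 ± 0.33, adjusted p = 1.36e-05, 2.74e-05 and 1.18e-06). Each of these 6 calls held without any 1 library. Because this fall stands in contrast to the fibrillar genes, the promoter is shown (chr19:47691993-47692292, minus strand, marks as above).
Col17a1: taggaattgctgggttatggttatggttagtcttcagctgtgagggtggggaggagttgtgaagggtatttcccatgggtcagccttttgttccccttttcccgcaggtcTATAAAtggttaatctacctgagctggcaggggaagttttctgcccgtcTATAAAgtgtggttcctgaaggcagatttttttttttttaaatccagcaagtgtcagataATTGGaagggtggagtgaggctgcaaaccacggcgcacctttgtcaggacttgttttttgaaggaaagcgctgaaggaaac
It holds 46.3% G and C, TATAAA at -140 and -91, and CCAAT on the opposite strand at -31.

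Col7a1 (ENSMUSG00000025650, chromosome 9, 108782647 to 108813943), the anchoring fibril collagen, was low at day 2 and overlapped the unwounded level afterwards. At day 2 it had 109, 64.5, 111, 184 and 225 CPM in PD and 96.1, 107, 121, 106 and 131 CPM in P wounds, against 327, 240.5 and 359 CPM in unwounded skin. All wounds of day 2 lay below unwounded skin. The fall passed the test in P wounds (log2 change -1.46 ± 0.50, 2.75-fold, adjusted p = 0.0189), with -1.16 ± 0.50 in PD wounds (adjusted p = 0.0652). The P call was lost without unwounded replicate 1 or 3 (adjusted p = 0.0595 and 0.0766) and with wound libraries numbered 3 and up (-1.35, adjusted p = 0.0578). At day 4 it ranged from 139 to 362 CPM in PD wounds and was 180.5, 179, 290.0, 298 and 248 CPM in P wounds, a log2 change of -0.47 and -0.37 (adjusted p = 0.448 and 0.577). At day 12 Col7a1 ranged from 104 to 723 CPM in PD (median 247) and from 146 to 802 CPM in P wounds (median 277), around the unwounded values, with a log2 change of 0.03 ± 0.49 in PD and 0.13 ± 0.50 in P wounds. That direction was not stable: limma-voom with sample weights called Col7a1 lower at day 12 in both arms (-0.91, adjusted p = 0.0167 in PD and -0.68, adjusted p = 0.0279 in P). The ratio of Col7a1 to Col17a1 per kilobase averaged 0.408 ± 0.243 in PD and 0.454 ± 0.380 in P wounds at day 12 (SD, n = 6 each), against 0.0679 ± 0.0028 in unwounded skin (n = 3), and its lowest value at day 12 was 0.184 in both arms.

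The other transmembrane collagens were less abundant. Col23a1 fell 1.70- and 1.68-fold at days 4 and 12 in PD (adjusted p = 0.000544 and 0.000923) and 2.03- and 1.67-fold in P wounds (adjusted p = 3.59e-05 and 0.000958). Col25a1, best known from neurons, ranged at day 12 from 1.09 to 5.21 CPM in PD wounds (median 2.23) and from 1.47 to 4.68 CPM in P wounds (median 1.98), against 0.299, 0.179 and 0.0524 CPM in unwounded skin. It rose 15.3-fold in PD (log2 change 3.93 ± 0.68, adjusted p = 3.25e-05) and 12.3-fold in P wounds (3.62 ± 0.68, adjusted p = 8.03e-05), with no overlap. At day 4 its calls were lost without unwounded replicate 3 in PD wounds (adjusted p = 0.0527) and without P replicate 3 or unwounded replicate 2 or 3 in P wounds (0.0523, 0.076 and 0.0958). Col13a1, a collagen of focal adhesions and the neuromuscular junction, rose 2.02-fold in P wounds at day 2 (adjusted p = 0.0136) and 1.82-fold in PD wounds at day 4 (adjusted p = 0.0261). The first call was lost without unwounded replicate 2 (0.0687) and the second without PD replicate 2 or 5 or unwounded replicate 2 or 3 (0.0549 to 0.106), and both with wounds numbered 3 and up (0.0548 and 0.0912).

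Both multiplexin collagens rose. Col18a1, whose C-terminal fragment is endostatin, had 103, 88.9 and 106 CPM in unwounded skin, 294, 273, 211, 136 and 171 CPM in PD and 276, 257, 172, 145 and 144 CPM in P wounds at day 2, and 178 to 423 CPM in PD (median 272) and 309 to 618 CPM in P wounds (median 384) at day 12. No wound of any day overlapped unwounded skin. Col18a1 rose 2.19-, 2.16- and 2.98-fold at days 2, 4 and 12 in PD (adjusted p = 0.00821, 0.0064 and 0.000424) and 2.01-, 3.03- and 4.20-fold in P wounds (adjusted p = 0.0166, 0.000426 and 1.99e-05). In P wounds at day 2 it missed the threshold without unwounded replicate 2 (adjusted p = 0.067) and with wound libraries numbered 3 and up (0.11). Part of Col18a1 overlaps Slc19a1 on the opposite strand, so reads there may belong to either gene. Col15a1, a collagen at the outer face of basement membranes, rose 2.1-fold in PD (adjusted p = 0.0495) and 2.75-fold in P wounds (adjusted p = 0.0101) at day 12. That call was lost in PD wounds without PD replicate 1, 2 or 6 or any 1 unwounded sample (0.0522 to 0.152), in P wounds without unwounded replicate 3 (0.0525), and in both with wound libraries numbered 3 and up (0.215 in PD and 0.0641 in P). Col26a1, first described in testis and ovary, was low but rose: it had 0.748, 1.06 and 0.786 CPM in unwounded skin, 1.21 to 3.21 CPM in PD wounds and 2.52, 1.26, 0.935, 2.31 and 2.16 CPM in P wounds at day 4, and 5.40 to 12.3 CPM in PD and 3.41 to 6.81 CPM in P wounds at day 12. It rose 8.48-fold in PD (log2 change 3.08 ± 0.42, adjusted p = 8.55e-07) and 5.67-fold in P wounds (2.50 ± 0.41, adjusted p = 1.2e-05) at day 12. Its P call at day 4 was lost without P replicate 1 or 5 or unwounded replicate 1 or 3 (0.0507 to 0.08) and with wounds numbered 3 and up (0.0593). Col28a1 did not pass the test against unwounded skin, except as lower in PD wounds at day 4 with wounds numbered 3 and up (-1.77, adjusted p = 0.0045).

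Between successive days most called changes lay between days 4 and 12. From day 2 to day 4, 4 members were called higher and 1 lower in PD wounds, or 4 and 2 with no composition factor (4.26% of all genes were called, 2.67% higher and 1.59% lower) and 4 higher and 1 lower in P wounds (8.45%, 5.76% higher and 2.7% lower). From day 4 to day 12, 21 were called higher and 1 lower in PD wounds (31.3%, 15.7% higher and 15.6% lower) and 13 higher and 0 lower in P wounds (23.8%, 11.2% higher and 12.6% lower). In PD wounds Col16a1 rose 3.42-fold between days 4 and 12 (log2 change 1.78 ± 0.26, adjusted p = 4.42e-06), Col11a1 5.11-fold (adjusted p = 0.00038), Col6a1 3.38-fold (adjusted p = 0.00224) and Col1a1 3.25-fold (adjusted p = 0.0146). Col4a6 regained 2.56-fold (1.36 ± 0.29, adjusted p = 0.000424) and Col4a5 2.12-fold (adjusted p = 0.00492) in PD wounds, and Col8a2 regained 4.21-fold in PD (adjusted p = 2.92e-05) and 2.79-fold in P wounds (adjusted p = 0.00337). In P wounds Col11a1 rose 5.78-fold (adjusted p = 0.000692) and Col16a1 2.49-fold (adjusted p = 0.00075), with Col1a1 at 1.5 ± 0.57 (adjusted p = 0.0526). The only call toward lower levels was Col13a1 in PD wounds (-0.65, adjusted p = 0.0482), lost without PD day 12 replicate 1, 3, 4 or 5 or PD day 4 replicate 1, 2 or 5 (0.0561 to 0.169).

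In the earlier step Col26a1 was called in both arms, rising 3.31-fold in PD (adjusted p = 0.00301) and 2.73-fold in P wounds (adjusted p = 0.00631) between days 2 and 4. The other calls were Col24a1 (4.28-fold, adjusted p = 0.0413), Col11a2 (1.93-fold, adjusted p = 0.0355), Col10a1 (0.0281) and the fall of Col8a2 (2.37-fold, adjusted p = 0.039) in PD wounds, and Col11a1 (3.46-fold, adjusted p = 0.0348), Col16a1 (1.92-fold, adjusted p = 0.0331), Col10a1 (0.00809) and the fall of Col23a1 (1.68-fold, adjusted p = 0.00359) in P wounds. For Col10a1 no fold is given because day 2 held 1 count in PD and 0 in P wounds. Of the PD calls, only that of Col26a1 held without each single library, and the count was 1 without PD day 4 replicate 6 or PD day 2 replicate 1 or 3, 2 without PD day 4 replicate 4 or 5 or PD day 2 replicate 2 or 5, and 3 without PD day 2 replicate 4. In P wounds the count was 3 without P day 4 replicate 3 or P day 2 replicate 3, 4 or 5, where Col11a1 (0.0771 to 0.161) and Col16a1 (0.094 to 0.188) were lost. The count of 13 between days 4 and 12 in P wounds was 7 without P day 4 replicate 2 and 8 without P day 4 replicate 4. With wound libraries numbered 3 and up only Col26a1, Col20a1, Col11a1 and Col8a2 were called in P wounds (log2 change 1.34, 1.03, 2.04 and 1.77), while the step from day 2 to day 4 in P wounds had 9 called higher and 1 lower, among them Col1a1 (2.23, adjusted p = 0.0403) and Col12a1 (2.51, adjusted p = 0.0049). In that fit the PD counts were 2 higher and 2 lower between days 2 and 4 and 19 higher and 0 lower between days 4 and 12. Of all genes it called 2.96% in PD and 6.05% in P wounds between days 2 and 4. Between days 4 and 12 it called 32.4% in PD and 26.1% in P wounds.

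No collagen gene passed the test between PD and P wounds of the same day in the fit of all libraries. The count called at days 2, 4 and 12 was 0 by edgeR, where 0.0% of all genes were called, and DESeq2 also called 0 collagens. Over all genes the DESeq2 Wald test called 7 higher and 17 lower in PD at day 2, 12 higher and 172 lower at day 4 and 0 at day 12. At an unadjusted p under 0.05 there were 3 members at day 2, 4 at day 4 and 0 at day 12, against 3.84%, 11.5% and 4.95% of all genes. The median member differed by -0.08, -0.46 and -0.25 at days 2, 4 and 12 (PD over P, log2), with 27, 30 and 35 of 44 fitted below 0, against 51.6%, 50.7% and 55.2% of all genes. At day 2 the 3 were Col8a2 (0.88), Col9a2 (1.4) and Col24a1 (-1.44). Col24a1 had 1.71, 1.56, 0.976, 1.16 and 0.681 CPM in PD and 2.59, 8.08, 2.26, 1.78 and 1.77 CPM in P wounds, the 1 member whose groups did not overlap on any day (1.68% of all genes at day 2). At day 4 the 4 were Col4a5 (-0.83, adjusted p = 0.379), Col4a6 (-0.78, adjusted p = 0.38), Col16a1 (-0.68, adjusted p = 0.391) and Col4a4 (-0.87, adjusted p = 0.418), all lower in PD. Col4a5 at day 4 ranged from 1.88 to 6.62 CPM in PD wounds (median 3.95) and was 4.84, 5.04, 15.9, 3.46 and 7.76 CPM in P wounds. The highest value belongs to P replicate 3, the library with hair matrix markers, and the groups overlapped.

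The 6 genes plotted by library above gave these differences. Col1a1 differed by -0.44, -0.49 and -0.29 at days 2, 4 and 12, with 95% intervals from -1.57 to 0.677, from -1.56 to 0.576 and from -1.31 to 0.733. Col3a1 differed by -0.35, -0.72 and -0.48, and Col12a1 by -0.50, -0.82 and -0.91, with an interval from -2.03 to 0.219 at day 12. Col4a1 differed by -0.06, -0.50 and -0.72, Col7a1 by 0.31, -0.10 and -0.10, and Col17a1 by 0.41, -0.35 and -0.22. With wound libraries numbered 3 and up, the day 12 differences of Col1a1, Col3a1 and Col12a1 were 0.28, 0.24 and 0.00, a fit that drops replicates 1 and 2 of both arms. Without P day 12 replicate 1 alone they were 0.20 for Col1a1 and 0.13 for Col3a1, and all 3 were also above 0 by limma-voom and with 2 surrogate variables. With wound libraries numbered 3 and up, 4 members were called lower in PD at day 4, where 3.26% of all genes were called: Col14a1 (-2.41, adjusted p = 0.0399), Col4a4 (-1.34, adjusted p = 0.0315), Col4a5 (-1.42, adjusted p = 0.0479) and Col16a1 (-1.11, adjusted p = 0.0479). That fit kept only P replicates 3, 4 and 5 and PD replicates 3 to 6 of day 4. P replicate 3, the library with hair matrix markers, held the highest kept P level of Col16a1 (316.6 CPM, against 95.5 and 189.5 CPM). The same held for Col4a5 and, narrowly, for Col4a4, but not for Col14a1. The part of that library in these calls was not tested. Limma-voom with sample weights, which gives less weight to libraries that deviate, called Col14a1 (-1.94, adjusted p = 0.0463) and Col4a4 (-1.28, adjusted p = 0.0228) lower and Col11a2 higher (0.70, adjusted p = 0.0385) in PD at day 4, with 9.95% of all genes called. The change in the PD over P difference between days was called for 0 members between days 2 and 4 and 0 between days 4 and 12 by edgeR and DESeq2. By edgeR 0.0% of all genes were called and by the DESeq2 Wald test 7 higher and 71 lower between days 2 and 4 and 86 higher and 3 lower between days 4 and 12. By edgeR 7.13% and 3.02% of all genes had an unadjusted p under 0.05. Limma-voom called 7 members between days 2 and 4 (13.5% of all genes), 6 lower and 1 higher.

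**Figure D5:**
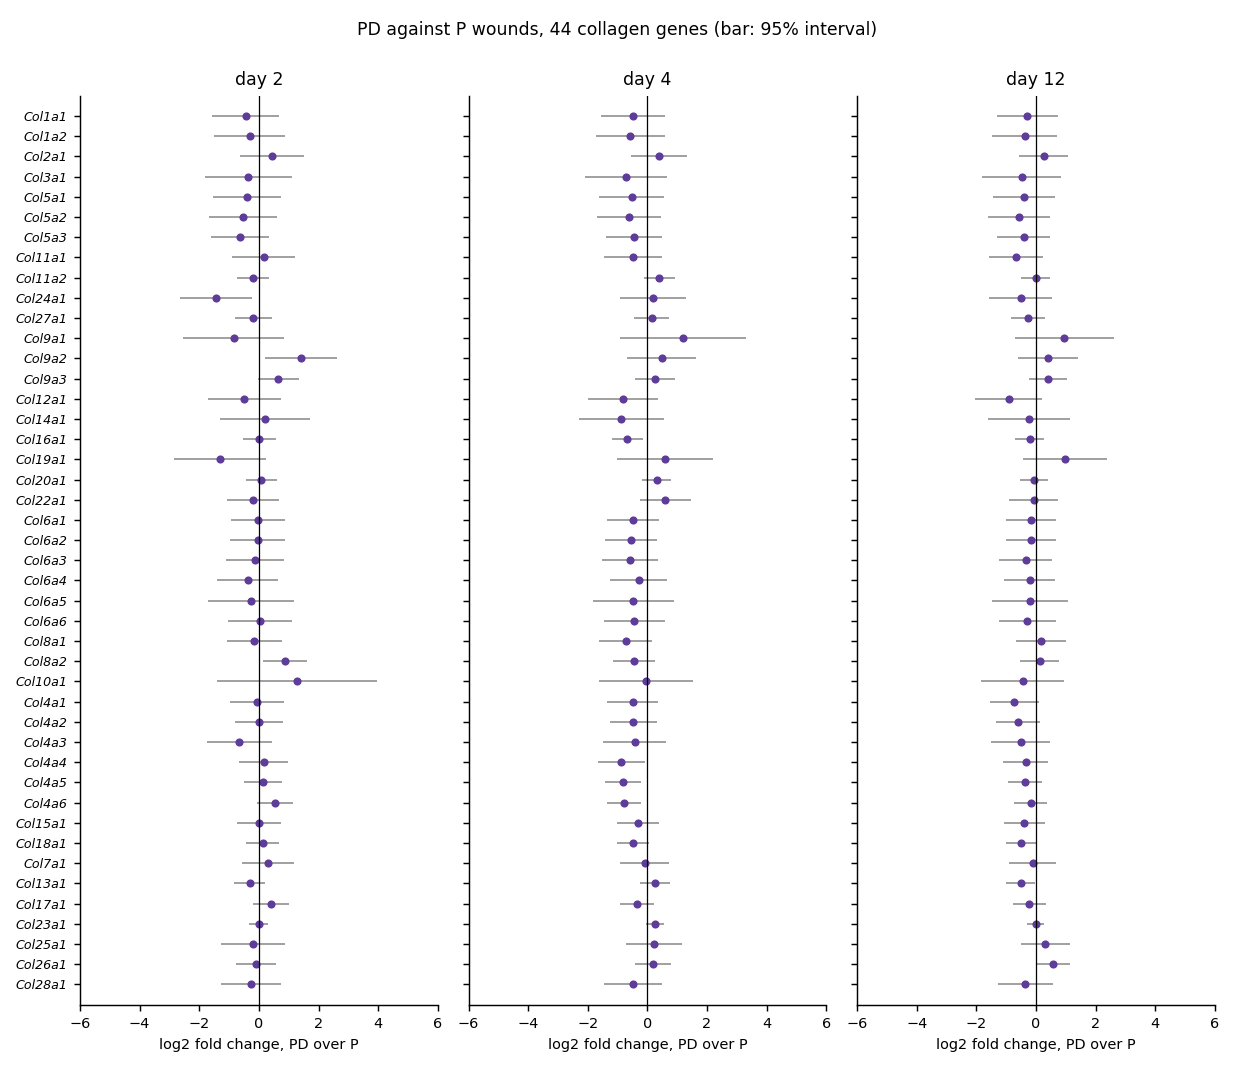
Fitted log2 fold change of PD over P wounds for each of the 44 collagen genes at days 2, 4 and 12 (points) with 95% intervals (bars). Most points lie left of 0 at day 4 (30 of 44) and day 12 (35 of 44), and the intervals of nearly all genes include 0.

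The enzymes and receptors that act on collagen were counted from lists of 53 genes. Of all genes, 21%, 25.4% and 24.2% were called higher in PD and 22.3%, 23.6% and 23.7% in P wounds at days 2, 4 and 12. At day 12, 20.7% of all genes were called lower in PD and 20% in P wounds. Of 18 genes that fold and modify collagen inside the cell, 7, 5 and 9 were called higher in PD and 8, 8 and 10 in P wounds at days 2, 4 and 12, with P3h2 the 1 called lower in each. P4ha3, a subunit of collagen prolyl hydroxylase, averaged 25.6 CPM in PD and 29.5 CPM in P wounds at day 12, against 0.59 CPM in unwounded skin, a log2 change of 5.24 in PD (adjusted p = 3.11e-05) and 5.44 in P (adjusted p = 2.08e-05). Fkbp10, a collagen chaperone, averaged 137 CPM in PD and 147 CPM in P wounds, against 16.3 CPM in unwounded skin (log2 change 3.07 and 3.18, adjusted p = 4.25e-05 and 2.83e-05). P3h2, the prolyl 3-hydroxylase known for acting on collagen IV, averaged 18.7 CPM in PD and 20 CPM in P wounds, against 50.3 CPM in unwounded skin (log2 change -1.43 and -1.33, adjusted p = 0.000294 and 0.000613). Of 14 genes for propeptide removal and crosslinking, 7 were called higher in each arm at day 12, with Pcolce2 lower in PD and Tgm2 and Tll2 lower in P wounds. Lox, the lysyl oxidase that starts crosslinks, rose by 3.15 in PD (adjusted p = 0.00327) and 3.77 in P wounds (adjusted p = 0.00087), and Loxl2 by 3.11 and 3.48 (adjusted p = 0.000471 and 0.000164). Of 5 secretion genes, 1 was called higher and 1 lower in PD and 2 and 1 in P wounds. Creb3l1, a transcription factor of the secretory pathway, rose by 2.08 in PD and 2.25 in P wounds (adjusted p = 0.00433 and 0.00241), Sec24d by 1.21 in P wounds (adjusted p = 0.0353), and Mia2 fell by 0.60 in PD and 0.53 in P wounds (adjusted p = 3.27e-06 and 2.14e-05).

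Receptors were mixed and collagenases rose. Of 9 tested collagen receptors, 3 were called higher and 2 lower in each arm at day 12. Over all genes 24.2% were called higher and 20.7% lower in PD and 23.7% and 20% in P wounds. Mrc2, the receptor that takes up collagen fragments, rose by 2.38 in PD and 2.54 in P wounds (adjusted p = 0.00062 and 0.000327), Itga11 by 2.58 and 2.99 (adjusted p = 0.0228 and 0.0107), and the leukocyte receptor Lair1 by 3.45 and 3.17 (adjusted p = 3.78e-05 and 9.1e-05). The epithelial receptors Ddr1 and Itga2 fell by 0.86 and 1.85 in PD and by 0.80 and 1.61 in P wounds on the log2 scale (adjusted p = 0.00954, 7.1e-05, 0.0161 and 0.000362). Of 6 collagenases and gelatinases, 5, 5 and 4 were called higher in PD and 5 on each day in P wounds. Mmp14, the membrane-bound collagenase, averaged 591 CPM in PD and 617 CPM in P wounds at day 12, against 88.5 CPM in unwounded skin (log2 change 2.74 and 2.80, adjusted p = 2.04e-06 and 1.47e-06). The neutrophil gelatinase Mmp9 averaged 207 CPM in PD and 327 CPM in P wounds at day 2, against 18.1 CPM in unwounded skin (log2 change 3.52 and 4.18, adjusted p = 0.000965 and 0.000197), and did not pass the test at day 12. All 8 neutrophil markers were called higher at day 2 in both arms, and their part in the Mmp9 value was not tested. No tested gene of these lists was called between PD and P wounds on any day.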

How the data were processed

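RNA of 36 mouse skin samples was sequenced. Per the labels' protocols, tissue was snap frozen and extracted with TRIzol, and stranded mRNA libraries were read on an Illumina NovaSeq. Per the submitters' processing notes, the tools were Trimmomatic, HISAT2 2.1.0, SAMtools 1.9 and HTSeq, with the GRCm39 build. The deposited files hold whole-number counts per gene for 55414 genes, made by the authors and not normalized, with 0 entries that name no gene. The strand setting and the annotation release of the counting are not given in the sources used here. Libraries held 11807291 to 58375510 counts. No 2 replicates were alike within sampling noise (smallest chi-square per degree of freedom 12.5).

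Samples were grouped by the labels into 7 groups. Counts were tested with edgeR 4.0.16 in R 4.3.3 (TMM scaling, filterByExpr thresholds of 10 counts and 15 in total, robust quasi-likelihood test, 1 mean per group over 36 libraries) in 15 comparisons, with Benjamini-Hochberg adjustment over all 20657 genes tested. Every adjusted p is from this test unless another is named. A gene is called, and said to have risen or fallen, under an adjusted p of 0.05, and 95% intervals are 1.96 SE either side. CPM are counts over the effective library size, and levels per kilobase divide CPM by the length of the canonical transcript in GENCODE M39, which held 98.8% of the identifiers. The code was checked on simulated data.

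The members and lists were chosen with earlier results of these data known. By the rule for named genes, each collagen may be named, 6 of them (Col1a1, Col3a1, Col4a1, Col7a1, Col12a1 and Col17a1) are followed whether called or not, and up to 4 called genes of each other list are given by smallest adjusted p. Where a list had 5 or fewer calls in a direction, further genes were named after their values were seen. Alternatives were DESeq2 1.42.0 size factors and its Wald test, no composition factor, no filter, a minimum count of 50, limma-voom 3.58.1 with sample weights, a fit of only the libraries compared, 2 surrogate variables (sva 3.50.0), the replicate number as a block and leaving out each library. The fit of wound libraries numbered 3 and up, with all unwounded samples, was added after the data were seen. Leave-one-out fits were not run for genes other than collagens. Promoter windows are from RefSeq on GRCm38.p6.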

Additional observations from a re-analysis of the deposited data

Results flagged for a closer look

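The summed level of the 2 collagens of no larger class, Col26a1 and Col28a1, set 1 wound apart. It was 19.3 CPM in P day 2 replicate 2, against 5.53 to 7.57 CPM in the other 4 P wounds of that day. The gap to the nearest wound took 0.751 of the range of the group on a log2 scale, above the limit of 0.71 for 5 samples. Nearly all of it was Col28a1, a collagen known from peripheral nerve, at 18.7 CPM in that library. In all, 90 combinations of a group with a class sum or a followed gene were looked at in this way, and chance sets apart about 1 in 20.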

How the results depend on the processing

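Against unwounded skin, limma-voom with sample weights called 26, 29 and 35 collagens at days 2, 4 and 12 in PD wounds and 26, 34 and 38 in P wounds, 2 surrogate variables gave 20 at day 2 and 30 at day 4 in PD and 23 at day 2 in P wounds, and a fit of only the libraries compared gave 14 at day 2 in PD wounds. Over all 20657 genes, limma-voom called 6293 higher and 6225 lower, 6586 and 6443, and 6406 and 6013 in PD wounds. In P wounds it called 6343 and 6223, 7043 and 6490, and 7151 and 6569. With 2 surrogate variables the calls over all genes were 5157 and 5119, and 5589 and 5418 in PD, and 5488 and 5245 in P wounds. The fit of only the libraries compared called 4648 and 3586 of 18087 genes. At day 2 the collagen share was thus near that of all genes by limma-voom and with 2 surrogate variables. It was below that of all genes in PD wounds with only the libraries compared. Between days 2 and 4, 2 calls in PD and 3 in P wounds were made with no filter, 3 and 3 with only the libraries compared, 10 and 20 by limma-voom, 23 and 21 with 2 surrogate variables, and 10 in P wounds numbered 3 and up. Over all 36241 genes with no filter, 320 were called higher and 207 lower in PD and 901 and 292 in P wounds. With only the libraries compared they were 270 and 111 of 17626 in PD and 774 and 364 of 17666 in P wounds. Limma-voom called 2175 and 1920 in PD and 2888 and 3297 in P wounds. With 2 surrogate variables they were 1331 and 848 in PD and 1750 and 1375 in P wounds. In P wounds numbered 3 and up 6.05% were called. Between days 4 and 12 in P wounds there were 8 with only the libraries compared, 23 with 2 surrogate variables and 4 with wounds numbered 3 and up. Over all genes these called 1458 higher and 1854 lower of 17707, 2535 and 3341 of 20657, and 26.1%. Between arms at day 4 limma-voom called 3 and the fit of wounds numbered 3 and up 4, and limma-voom called 7 changes between days 2 and 4.

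Leaving out 1 library, the counts against unwounded skin were 6 to 10, 13 to 22 and 24 to 29 in PD wounds at days 2, 4 and 12, and 8 to 16, 15 to 20 and 24 to 29 in P wounds. They were 1 to 7 and 16 to 23 between successive days in PD wounds, 3 to 5 and 7 to 17 in P wounds, and 0 in each comparison between arms and each change.

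Differences between arms changed sign most often (log2, PD over P). At day 2 they became 0.10 for Col1a1, 0.59 for Col3a1, 0.27 for Col4a1, -0.0529 for Col7a1 and 0.39 for Col12a1 by limma-voom, 0.0057 for Col4a1 with no composition factor and 0.32 for Col3a1 with wounds numbered 3 and up. At day 4 they became 0.0215 for Col1a1 and 0.0924 for Col4a1 with 2 surrogate variables and 0.17 for Col7a1 by limma-voom. At day 12 they became 0.32 for Col1a1, 0.38 for Col3a1 and 0.28 for Col12a1 by limma-voom, 0.53, 0.79 and 0.12 for the same genes with 2 surrogate variables, and 0.28, 0.24 and 0.0034 for them and 0.33 for Col7a1 with wounds numbered 3 and up. Leaving out 1 library, they lay between -0.78 and 0.23 for Col3a1, -0.29 and 0.16 for Col4a1 and -0.83 and 0.015 for Col12a1 at day 2, between -0.29 and 0.0067 for Col7a1 at day 4, and between -0.49 and 0.20 for Col1a1, -0.82 and 0.13 for Col3a1 and -0.53 and 0.36 for Col7a1 at day 12.

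Against unwounded skin, Col7a1 became 0.0497 in P wounds at day 4 with 2 surrogate variables, -0.91 in PD and -0.68 in P wounds at day 12 by limma-voom and -0.18 and -0.50 with wounds numbered 3 and up, and lay between -0.32 and 0.23 in PD and -0.33 and 0.33 in P wounds without 1 library. Col4a1 became -0.0548 in PD wounds at day 12 with wounds numbered 3 and up. Between days 2 and 4, Col4a1 in P wounds became 0.10 by limma-voom and 0.33 with wounds numbered 3 and up (-0.42 to 0.0255 without 1 library), Col17a1 in P wounds became -0.0108 and Col4a1 in PD wounds 0.22 with 2 surrogate variables, and Col3a1 in PD wounds became -0.34 by limma-voom and -0.0455 with wounds numbered 3 and up (-0.35 to 0.58 without 1 library). Between days 4 and 12 in P wounds, Col3a1 became -0.0703 by limma-voom, Col4a1 -0.21 by limma-voom, -0.0219 with 2 surrogate variables and -0.42 with wounds numbered 3 and up (-0.15 to 0.48 without 1 library), and Col7a1 -0.40 and Col12a1 -0.37 with wounds numbered 3 and up. In the same step in PD wounds, Col4a1 became 0.17 with no composition factor, 0.0422 with no filter, 0.0276 with a minimum count of 50 and 0.0582 by limma-voom (-0.33 to 0.25 without 1 library), and Col7a1 -0.40 by limma-voom. The cause of these changes was not tested.

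Of 16 pairs of same-numbered samples of the 2 arms, 12 deviated together with r over 0.1 (range -0.253 to 0.535), and in 6 the best match had the same number. Not every pair passed 0.1, so the block was kept as an alternative only. With the replicate block, 17 collagens were called at day 2 in PD wounds and 9 between days 2 and 4 in P wounds, and Col7a1 changed by -0.18 in PD wounds at day 12. Over all genes the block called 4605 higher and 4211 lower at day 2 in PD wounds. Between days 2 and 4 in P wounds it called 1383 and 720. Of 219 values, 218 kept their direction and side of the threshold with DESeq2 size factors, 212 by the DESeq2 Wald test and 211 with no composition factor, a scaling that moved the median of all genes by 0.239 in PD and 0.268 in P wounds at day 12 and the calls over all genes there to 6734 higher and 2657 lower in PD and 7064 higher and 2617 lower in P wounds. Low counts limit Col2a1, Col6a4, Col9a1, Col10a1 and Col19a1, and 3 unwounded samples limit every comparison with them.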
